A study of Saccharomyces cerevisiae with 51 samples.

Results

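The sterol synthesis genes of budding yeast described here are 30 named genes: the enzymes that carry acetyl-CoA through mevalonate and squalene to ergosterol, the enzymes that store sterol as esters, and 3 transcription factors tied to sterol supply. They were chosen by name and role, not by any measured value, and all 30 were found by their systematic names among the 6840 genes of the metabolic cycle table and the 6821 genes of the rapamycin table. All 30 passed the filter on low values in both tables, which asked for a mean of at least 1 FPKM (a read count divided by gene length and by a size factor for the library). The table of chromatin accessibility held 28 of them among its 5193 genes. ERG13 and ARE2 had no row there.

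Ergosterol is the main sterol of fungal membranes, the counterpart of cholesterol in animals. The route opens with the mevalonate pathway, whose controlling step is HMG-CoA reductase, and the isoprenoid units it makes also serve ubiquinone, dolichol, haem A and protein prenylation. Squalene is then oxidised, closed into lanosterol and trimmed by a chain of enzymes, several of which need molecular oxygen and haem or iron. The zinc cluster factors Upc2 and Ecm22 bind sterol regulatory elements in the promoters of these genes, and surplus sterol is esterified and stored in lipid droplets.

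RNA came from CEN.PK yeast in continuous culture, where the cells pass together through metabolic cycles, and from the same strain background carrying ARP5::KAN, a deletion of ARP5 called arp5∆ here. Arp5 is a subunit of the nucleosome remodeller INO80. Each genotype was sampled at 6 phases, labelled RC start, RC mid, OX mid, OX late, RB start and RB late (RC for reductive charging, OX for oxidative and RB for reductive building). Every genotype and phase is covered by libraries A and B, 12 pairs in all. A and B are technical replicates, 2 RNA preparations of the same culture, so p-values between phases measure technical spread and each genotype rests on 1 culture. A second set came from asynchronous BY4741 cultures in mid-log phase, a laboratory strain that carries auxotrophic marker deletions in all its samples: a control, and cells exposed for 45 or 90 min to rapamycin at 30 nM, with 2 biological replicates each. Rapamycin inhibits the growth kinase complex TORC1. The control's treatment text mentions rapamycin as well, and its title decided its use as control. In RNA from a whole culture, a level that differs in every cell and a level that differs in some of the cells cannot be told apart.

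ARP5 read 46.4 to 55.8 FPKM in the 12 wild-type libraries. In arp5∆ 11 of 12 libraries listed it at 0, and the other held 0.0649 FPKM. Of the marker genes deleted in BY4741, LEU2 read at most 0.181 FPKM and MET17 at most 0.0593 in the rapamycin columns. HIS3 read 157 to 1059 FPKM there, and URA3 had no value. Which part of HIS3 was counted is not known. Low values implied 5.01 to 9.73 M reads on genes per cycle library and 9.43 to 13.5 M per rapamycin library. The sum of FPKM over genes was not held equal, with 1.02 to 1.65 M per cycle library and 0.920 to 1.47 M per rapamycin library, so every change below is relative to the authors' own scaling. Among the sterol genes the values of A and B differed by a median ratio of 1.04. Their largest ratio was 1.40, for ARE1 in arp5∆ at RB start.

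In the wild type the sterol genes did not move as one block. Of the 30, 20 changed over the phases, meaning a Benjamini-Hochberg adjusted p under 0.05 in limma's F test and a range of phase means of at least 1 on the log2(FPKM + 1) scale. The same held for 62.1% of all 6510 genes tested. The median range was 1.46 for the sterol genes and 1.34 for all genes, so both values lay near those of the transcriptome as a whole. They split by timing: of the 20, 8 had their highest mean at RC start, 7 at OX mid, 2 at RC mid, and 1 each at OX late, RB start and RB late. Counting all 30, 12 were highest at RC start and 9 at OX mid, against 23.5% and 37.1% of all genes.

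**Figure D1:**
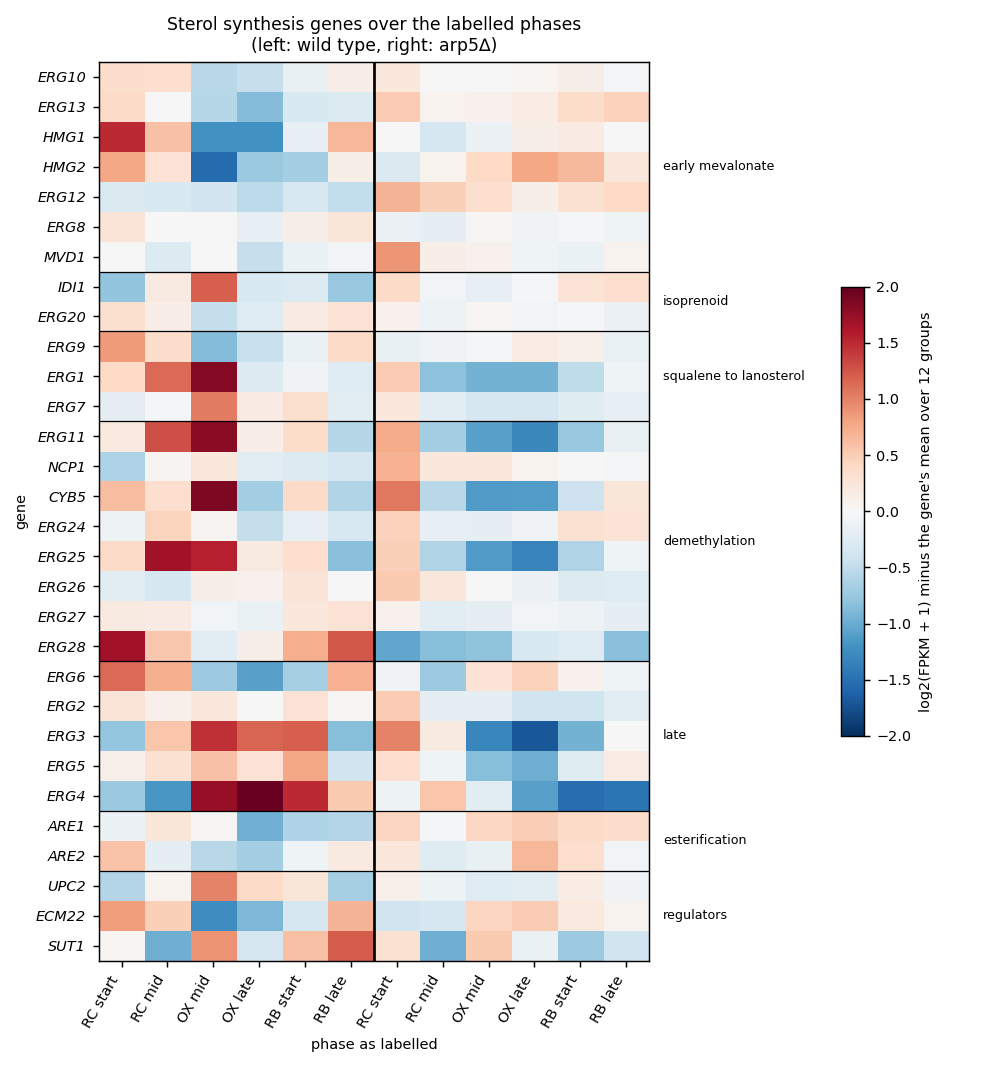
Mean log2(FPKM + 1) of libraries A and B at each labelled phase minus the gene's mean over the 12 groups, for the 30 sterol genes in pathway order (rows), with wild type in the left and arp5∆ in the right 6 columns and colours held at the ends of the scale beyond 2 either way. In wild type the deep red cells lie at OX mid for ERG1, ERG11, CYB5 and ERG3 but at RC start for HMG1, ERG28 and ERG6. In arp5∆ 18 of the 30 genes are highest at RC start, of which 7 were called as changing over the phases.

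The mevalonate steps held genes that moved and genes that did not. HMG1 and HMG2 encode the 2 HMG-CoA reductases, of which Hmg1 is the main form in air and Hmg2 the form favoured when oxygen is short. In wild type, HMG1 read 305 and 293 FPKM in libraries A and B at RC start, 161 and 158 at RC mid, 45.0 and 45.1 at OX mid, 45.7 and 44.8 at OX late, 94.1 and 94.9 at RB start, and 167 and 168 at RB late. HMG2 read 62.3 and 59.8 at RC start, 43.8 and 42.8 at RC mid, 11.7 and 11.3 at OX mid, 23.2 and 18.4 at OX late, 21.4 and 21.9 at RB start, and 38.6 and 37.9 at RB late. Both genes were thus highest at RC start and lowest in the oxidative phases, with no overlap between the RC start libraries and any other phase. Their ranges were 2.70 for HMG1 (adjusted p = 2.09e-19) and 2.31 for HMG2 (adjusted p = 7.05e-14). ERG13, which makes HMG-CoA, was also highest at RC start, with a smaller range of 1.25, from 409 and 428 FPKM at RC start to 178 and 171 at OX late. With the libraries scaled to the same FPKM sum its range was 0.83, under the minimum.

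Mevalonate kinase, encoded by ERG12, had the flattest course of all 30 genes. It read 55.6 FPKM in its lowest, 66.0 in its median and 72.8 in its highest wild-type library, a range of phase means of 0.23. ERG8, which encodes the next kinase, had a range of 0.42, and MVD1, which encodes the decarboxylase that ends the mevalonate pathway, one of 0.45. The thiolase gene ERG10 and the farnesyl diphosphate synthase gene ERG20 stayed just under the 2-fold minimum, with ranges of 0.91 and 0.80. All 5 passed the adjusted p alone.

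IDI1, the isomerase that supplies the starter unit for isoprenoid chains, had a wider range than its neighbours in the pathway. Its range was 1.98, against 0.45 for MVD1 before it and 0.80 for ERG20 after it. IDI1 read 627 and 640 FPKM at OX mid and 152 and 168 at RC start. MVD1 had a mean of 258 FPKM at both of these phases, and ERG20 was highest at RC start. ERG9, squalene synthase and the first step given to sterols alone, ran the other way, with 327 and 343 FPKM at RC start and 95.5 and 106 at OX mid. Squalene epoxidase, encoded by ERG1 and the first step that needs oxygen, read 998 and 1019 FPKM at OX mid, 607 and 627 at RC mid, and 232 to 376 at the other phases. The gene of the cyclase that follows, ERG7, was also highest at OX mid, with a range of 1.23 (0.98 after quantile normalization). Substrate-making ERG9 and oxygen-using ERG1, adjacent steps of the route, were therefore at opposite ends of their ranges at OX mid.

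Lanosterol demethylase, encoded by ERG11 (YHR007C, chromosome VIII, 120091 to 121683 in the RefSeq table of assembly R64) and the target of azole antifungals, was the most abundant sterol transcript per length in wild type at OX mid. Its wild-type libraries read 565 and 578 FPKM at RC start, 1233 and 1196 at RC mid, 1741 and 1761 at OX mid, 536 and 558 at OX late, 671 and 612 at RB start, and 326 and 344 at RB late. ERG25, the methyl oxidase of the same stretch, read 632 and 585, 1478 and 1528, 1362 and 1367, 526 and 528, 608 and 570, and 259 and 261 at the phases in that order. Both genes therefore stood highest at RC mid and OX mid and lowest at RB late, with ranges of 2.38 and 2.52. CYB5, whose small cytochrome passes electrons to several of the oxygen-using steps, read 398 and 370 FPKM at RC start, 326 and 302 at RC mid, 888 and 924 at OX mid, 160 and 150 at OX late, 330 and 317 at RB start, and 160 and 166 at RB late. It had a sharper maximum, at OX mid alone, and a range of 2.54.

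The other demethylation genes did less. NCP1, the reductase that serves Erg11, had its highest mean at OX mid with a range of 0.82, and ERG24, ERG26 and ERG27, a reductase, a decarboxylase and a second reductase, had ranges of 0.92, 0.60 and 0.43. ERG28 (YER044C, chromosome V, 237570 to 238016), which encodes the scaffold that holds the demethylation enzymes together in the endoplasmic reticulum, was, like HMG1, highest at RC start and lowest at OX mid. It read 911 and 951 FPKM at RC start, 429 and 410 at RC mid, 241 and 257 at OX mid, 324 and 306 at OX late, 480 and 477 at RB start, and 659 and 706 at RB late. The scaffold's RNA was thus at its lowest at the phase where ERG11 was at its highest.

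Among the late genes, ERG4 had the widest range of all 30, 3.14 (adjusted p = 2.31e-17). Its product is the reductase that makes ergosterol itself. ERG4 read 61.5 and 64.6 FPKM at RC start, 43.3 and 51.4 at RC mid, 355 and 365 at OX mid, 422 and 425 at OX late, 312 and 292 at RB start, and 149 and 160 at RB late. ERG3, an oxygen-using desaturase, read 177 and 175 FPKM at RC start, 447 and 441 at RC mid, 824 and 834 at OX mid, 675 and 681 at OX late, 705 and 683 at RB start, and 163 and 172 at RB late. Both stayed high from OX mid to RB start. The methyltransferase gene ERG6, which gives ergosterol its fungal side chain, ran opposite, with 1694 and 1639 FPKM at RC start and 357 and 359 at OX late. ERG5, a second desaturase, was highest at RB start, with a range of 1.16, and the isomerase gene ERG2 had a range of 0.28, with 395 FPKM in its lowest, 451 in its median and 521 in its highest library.

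The 2 sterol acyltransferase genes differed in level as well as timing. ARE2, the main one in aerobic cells, read 104 and 116 FPKM at RC start, 61.7 and 65.7 at RC mid, 47.7 and 51.3 at OX mid, 45.0 and 46.0 at OX late, 64.4 and 74.4 at RB start, and 80.0 and 86.7 at RB late. ARE1 read 8.83 and 7.57 FPKM at RC start, 10.1 and 11.4 at RC mid, 8.38 and 9.85 at OX mid, 4.28 and 3.92 at OX late, 5.61 and 5.34 at RB start, and 5.53 and 5.69 at RB late. ARE2 stood above ARE1 in every library, and both were lowest at OX late. The range was 1.25 for ARE2 and 1.20 for ARE1, the latter 0.90 at the same FPKM sum. ARE1 overlaps the locus YCR050C over 298 bases, and no source used here says whether strand was kept, so its reads may include those of that neighbour.

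The paralogous regulators UPC2 and ECM22 moved in opposite directions over the wild-type cycle. UPC2 read 3.53 and 3.83 FPKM at RC start, 6.46 and 6.29 at RC mid, 11.9 and 14.2 at OX mid, 7.42 and 8.95 at OX late, 7.39 and 7.28 at RB start, and 3.17 and 3.68 at RB late. ECM22 read 36.3 and 36.5 FPKM at RC start, 27.1 and 29.0 at RC mid, 8.31 and 7.50 at OX mid, 10.6 and 9.99 at OX late, 14.9 and 16.4 at RB start, and 34.7 and 30.4 at RB late. At RC start ECM22 was far above UPC2, and at OX mid the order was reversed. Over the 6 phase means Pearson's r was -0.93 for this pair, given as a description over 6 points of 1 culture. SUT1, a factor known for its part in sterol uptake without oxygen, had its own course, from 8.18 and 7.72 FPKM at RC mid to 39.3 and 39.6 at RB late.

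**Figure D2:**
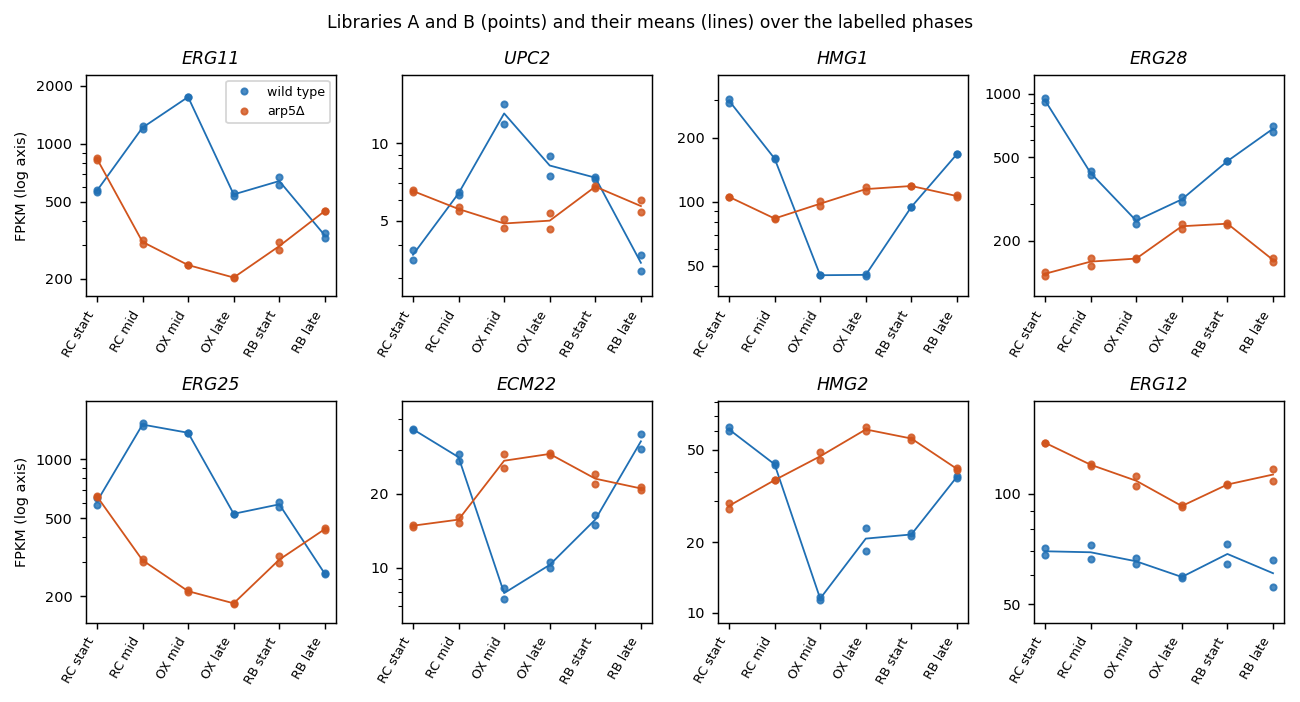
FPKM on a log axis (each panel with its own range) over the 6 labelled phases for 8 sterol genes, with points for libraries A and B and lines through their means, wild type in blue and arp5∆ in orange. At OX mid in wild type ERG11 and UPC2 are at their highest and HMG1, HMG2, ERG28 and ECM22 at their lowest, and the arp5∆ lines of ERG28 and ERG12 lie below and above the wild-type lines at all 6 phases.

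Likeness to ERG11 was measured as Pearson's r over the 6 phase means, on the log2 scale and without a test, since the points share a culture. In wild type ERG25 was most like it (r = 0.96), then ERG1 (0.94), IDI1 (0.92), CYB5 (0.82) and NCP1 (0.81). No other of the 29 genes passed 0.8, and 15 of the 29 had a negative r. The share of all genes as like ERG11 was not computed, so whether these counts are unusual is not known. Apart from ERG11, HMG1 was compared only with ERG9 (r = 0.98), ECM22 (0.97) and HMG2 (0.94), so its likeness to the other genes is not known.

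In arp5∆ the same genes covered less ground. Of the 30, 11 changed over the phases, where 32.3% of all genes did, and the median range was 0.79 against 0.74 for all genes. The range was narrower in arp5∆ than in wild type for 24 of the 30, or 80.0%, against 89.1% of all genes tested. ERG3 and CYB5 had the widest ranges, 2.70 and 2.19, followed by ERG4 with 2.07, ERG11 with 2.04 and ERG25 with 1.81. ERG3 was 1 of the 6 genes whose range was wider than in wild type, where it was 2.30. Of the 30 genes, 18 had their highest mean in the libraries labelled RC start, against 32.5% of all genes. Only 7 of these 18 were among the 11 that changed over the phases. Others were nearly flat, such as ERG20 with a range of 0.21.

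Among the genes highest at RC start were ERG11, ERG25, ERG3 and CYB5. ERG11 read 850 and 827 FPKM at RC start in arp5∆, 303 and 317 at RC mid, 235 and 236 at OX mid, 203 and 203 at OX late, 310 and 280 at RB start, and 449 and 450 at RB late. ERG25 read 653 and 642, 300 and 311, 216 and 209, 183 and 185, 320 and 295, and 435 and 446 at the phases in that order. Both were highest at RC start and lowest at OX late. ERG3 read 601 and 608 FPKM at RC start, 342 and 345 at RC mid, 120 and 124 at OX mid, 93.6 and 90.9 at OX late, 154 and 160 at RB start, and 306 and 302 at RB late. CYB5 read 508 and 527 FPKM at RC start, 178 and 162 at RC mid, 112 and 113 at OX mid, 114 and 114 at OX late, 192 and 181 at RB start, and 297 and 294 at RB late. In arp5∆, 9 of the 29 other genes had an r above 0.8 with ERG11 over the phases, CYB5 (0.99), ERG25 (0.98), ERG7 (0.97) and ERG1 (0.97) most of all. Here too the share over all genes was not computed.

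HMG1 lost most of its swing in arp5∆, with a range of 0.50 and library values of 83.0 to 119 FPKM. HMG2 kept a range of 1.06, but its maximum of 62.2 and 59.8 FPKM lay at OX late and its minimum of 29.5 and 27.9 at RC start. ERG4 read 102 and 95.8 FPKM at RC start, 156 and 157 at RC mid, 86.5 and 95.4 at OX mid, 50.5 and 48.6 at OX late, 35.6 and 37.3 at RB start, and 37.6 and 38.8 at RB late. Its highest arp5∆ library was therefore below its wild-type libraries of OX mid, OX late and RB start. UPC2 stayed between 4.65 and 6.84 FPKM in arp5∆, while ECM22 ran from 14.7 to 29.2 FPKM with its maximum at OX late.

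The course over the labelled phases differed between the genotypes for 22 of the 30 genes by limma's F test of the interaction of genotype and phase, with a range of the genotype difference of at least 1. The share over all genes was 74.0%. ERG4 had the widest range of the genotype difference, 4.78 (adjusted p = 1.08e-17), and ERG3 the next, 4.64 (adjusted p = 2.85e-21). For ERG4 the log2 difference, arp5∆ minus wild type, was 1.71 at RC mid and -3.07 at OX late, and for ERG3 it was 1.77 at RC start and -2.86 at OX late. ERG12 and ERG8 had the narrowest ranges of the difference, 0.35 and 0.47. By role the count was 2 of 7 for early mevalonate genes, 1 of 2 for IDI1 and ERG20, 3 of 3 for squalene to lanosterol, 7 of 8 for demethylation, 4 of 5 for late genes, and all of the acyltransferases and regulators.

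Averaged over the 6 phases with the phase as the unit, none of the 30 genes was called between the genotypes with limma. Of all genes 1.52% were (1.01% higher and 0.507% lower in arp5∆). The 6 phases of a genotype come from 1 culture. The SE and p over the cycle therefore measure how the genotype difference varied over the phases, not a spread between cultures. At an unadjusted p under 0.05 there were 4, against 15.6% of all genes, namely ERG12, ERG28, ARE1 and ERG13. ERG28 had a mean of 513 ± 254 FPKM over the wild-type phases and of 183 ± 43.1 over those of arp5∆ (SD, n = 6 phases). Its arp5∆ libraries read 136 and 143 FPKM at RC start, 152 and 166 at RC mid, 164 and 165 at OX mid, 228 and 240 at OX late, 238 and 244 at RB start, and 159 and 165 at RB late. ERG28 was lower in arp5∆ at 6 of 6 phases, with a log2 difference of -1.37 ± 0.35 (SE, adjusted p = 0.110).

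ERG12 (YMR208W, chromosome XIII, 684467 to 685798) had a mean of 65.5 ± 4.52 FPKM over the wild-type phases and of 113 ± 15.2 over those of arp5∆ (SD, n = 6 phases). Its lowest arp5∆ library, at 92.3 FPKM, was above its highest wild-type library, at 72.8, and it was the only sterol gene whose 12 libraries of one genotype did not overlap the 12 of the other. Over all genes such separation held for 2.38% in the higher direction and 2.17% in the lower. The log2 difference over the cycle was 0.77 ± 0.14 (SE, adjusted p = 0.0449), under the 2-fold minimum, and ERG12 was higher at 6 of 6 phases. This SE and p too rest on 6 phases of 1 culture per genotype. ARE1 and ERG13 had log2 differences of 0.68 and 0.55, higher at 5 and 6 of the 6 phases.

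Since the labelled phases need not stand at the same point of the cycle in both genotypes, 4 pairs of phases with alike whole profiles in an earlier analysis of these data were compared as well. These contrasts keep the technical spread, and their choice rests on these libraries. The pair called the growth burst set arp5∆ at RC start against wild type at OX mid. Here 4 of the 30 genes were higher in arp5∆ and 4 lower, where 12.5% and 11.5% of all genes were. Of the 7 early mevalonate genes 4 were higher and none lower, and the 4 lower genes were ERG1, ERG11, ERG25 and ERG4. Place in the route did not divide the other genes. By the adjusted p alone 4 demethylation genes were higher and 4 lower, and 2 late genes were higher and 3 lower. The shares over all genes were then 35.9% higher and 38.3% lower. IDI1, which acts before squalene is made, fell from 633 to 360 FPKM.

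HMG2 rose from a mean of 11.5 FPKM in wild type to 28.7 in arp5∆, a log2 difference of 1.25 ± 0.08 (SE, adjusted p = 1.79e-10). HMG1 rose from 45.0 to 105 FPKM (1.21 ± 0.04), ERG13 from 216 to 455 (1.08 ± 0.06) and ERG12 from 65.4 to 138 (1.06 ± 0.07). ERG4 fell from 360 to 99.1 FPKM, a log2 difference of -1.85 ± 0.07 (adjusted p = 2.78e-13), and ERG1 from 1008 to 401 (-1.33 ± 0.04). ERG25 fell from 1365 to 647 FPKM (-1.08 ± 0.05) and ERG11 from 1751 to 839 (-1.06 ± 0.05). Scaled to the same FPKM sum per library, the split was 8 higher and 2 lower, beside 1145 and 415 of all genes, and after quantile normalization it was 5 and 3, beside 678 and 619. ERG11 and ERG25 were below the 2-fold minimum under both (-0.80 and -0.81, then -0.66 and -0.69), and HMG2 after quantile normalization (0.92).

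The post-growth pair, arp5∆ at RC mid against wild type at OX late, held 1 higher and 1 lower gene, where 7.30% and 5.56% of all genes were called. ERG12 rose from 59.3 to 120 FPKM (log2 difference 1.01 ± 0.07, SE, adjusted p = 2.43e-09), a call that rests on single libraries, with 0.993 without wild-type OX late library B and 0.998 without arp5∆ RC mid library A. ERG4 fell from 424 to 156 FPKM (-1.43 ± 0.07). At the same FPKM sum 5 genes were higher and 1 lower, beside 702 and 204 of all genes. In the late building pair, arp5∆ at OX mid against wild type at RB late, ERG28 was the only gene called, from 682 to 164 FPKM (-2.05 ± 0.05, adjusted p = 6.37e-15). The share of all genes was 5.25% higher and 4.35% lower, and at the same FPKM sum 2 sterol genes were higher and 1 lower, beside 583 and 155 of all genes.

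The quiescent-like pair, arp5∆ at OX late against wild type at RC start, had 7 lower genes and no higher one, where 4.84% and 6.97% of all genes were called. Of the 8 demethylation genes 4 were among them. ERG28 fell from 931 to 234 FPKM (-1.99 ± 0.05), CYB5 from 384 to 114 (-1.74 ± 0.05), ERG25 from 608 to 184 (-1.72 ± 0.05) and ERG11 from 572 to 203 (-1.49 ± 0.05). HMG1 fell from 299 to 115 FPKM (-1.38 ± 0.04), while HMG2 read 62.3 and 59.8 in wild type and 62.2 and 59.8 in arp5∆. ERG1 and ERG5 fell with log2 differences of -1.35 and -1.08. The median over the 30 genes was -0.32, against 0.03 over all genes. At the same FPKM sum, which moved the median of all genes to 0.47, 3 sterol genes were higher and 4 lower, beside 1103 and 104 of all genes, and HMG1 (-0.92), ERG1 (-0.89) and ERG5 (-0.62) were below the 2-fold minimum.

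**Figure D3:**
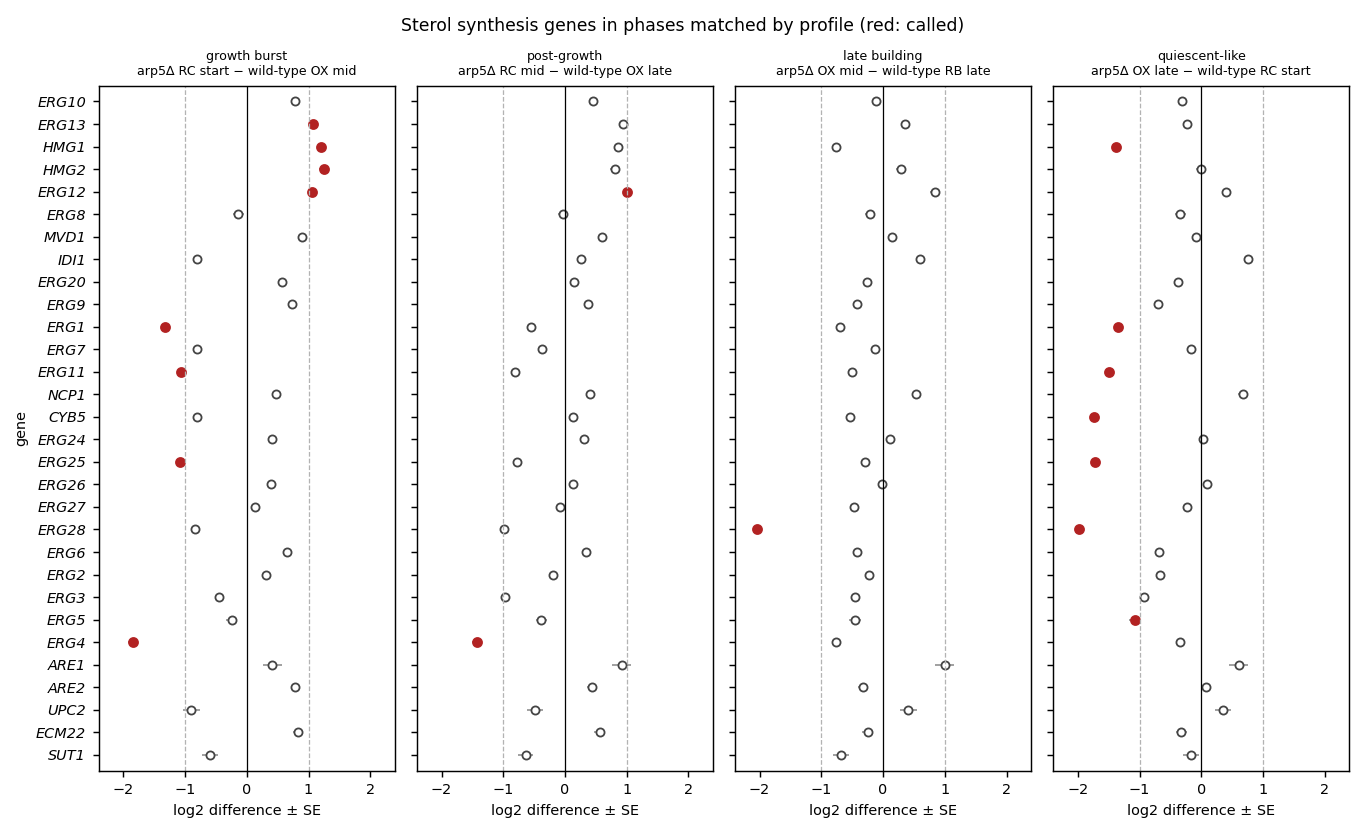
Log2 difference of log2(FPKM + 1), arp5∆ minus wild type, with its SE for the 30 sterol genes in the 4 pairs of phases matched by profile, filled red where the adjusted p was under 0.05 and the difference at least 1 either way (dashed lines). ERG28 lies left of 0 in all 4 panels, at -2.05 and -1.99 in the last 2, and ERG12 right of 0 in all 4.

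Across the 4 pairs ERG28 had log2 differences of -0.83, -0.98, -2.05 and -1.99, and ERG12 of 1.06, 1.01, 0.83 and 0.41. The early mevalonate genes had medians of 1.06, 0.81, 0.14 and -0.24, and the 5 late genes of -0.25, -0.38, -0.45 and -0.68. ARE1 was above 0 in each pair, with its largest difference, 0.995 and just short of the minimum, in late building. The pairs share no library, but each genotype is the same culture throughout.

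The genes around the route were read in 6 further lists. In wild type 6 of 11 prenyl branch genes cycled, 3 of 5 genes of ester hydrolysis and sterol acetylation, 13 of 20 sterol transport genes, 8 of 14 regulation genes and 6 of 8 haem synthesis genes, where 62.1% of all genes did. In the growth burst pair their medians were 0.75, -0.94, 0.41, 0.06 and -0.22 in that order, against -0.01 over all genes. In that pair 12.5% of all genes were higher and 11.5% lower. Of 11 prenyl branch genes, 2 were higher and 1 lower there: COQ2 (1.29) and COQ1 (1.18), which attach and make the tail of ubiquinone, and RER2 (-1.08), which makes dolichol. Of 5 genes of ester hydrolysis and sterol acetylation, none was higher and 2 were lower there, YEH1 (-1.63) and YEH2 (-1.04), both sterol ester hydrolases. YEH1 fell also in the post-growth (-1.23) and quiescent-like (-1.14) pairs, where 5.56% and 4.84% of all genes were lower. With equal FPKM sums RER2 (-0.82), YEH2 (-0.78) and the last YEH1 value (-0.71) were below 2-fold, and after quantile normalization COQ1 (0.96) was, with RER2 (-0.93) and YEH2 (-0.97). Without arp5∆ RC start library A, YEH2 had -0.974, and without arp5∆ OX late library B, YEH1 had -0.999 in the quiescent-like pair. Of 20 sterol transport genes 4 were higher and none lower in the growth burst pair, led by LAM5 (1.56) and OSH2 (1.54), a membrane contact protein and an oxysterol-binding protein homologue.

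Of 14 regulation genes 2 were higher and 1 lower in the growth burst pair, against 12.5% and 11.5% of all genes. HRD1, the ubiquitin ligase that degrades Hmg2, had a log2 difference of 1.91, and its partner HRD3 one of 1.09, while SUT2, a paralogue of SUT1, had -1.87. HRD1 rose also in the post-growth pair (1.24). DAP1, a haem protein that works with Erg11, fell in the late building (-1.19) and quiescent-like (-1.59) pairs. Of 8 haem synthesis genes 1 was higher in growth burst, HEM15 (1.06), and 1 in late building, HEM13 (1.11), whose enzyme uses oxygen. LAM4 (1.14), 1 of 20 sterol transport genes, and SRT1 (1.12), 1 of 11 prenyl branch genes, were higher in the post-growth pair. PRY2 (1.0005), 1 of 20 sterol transport genes, was higher in the quiescent-like pair. Of all genes 7.30% were higher and 5.56% lower in post-growth, 5.25% and 4.35% in late building, and 6.97% and 4.84% in quiescent-like. Several of these calls sat at the minimum. HEM15 had 0.971 without wild-type OX mid library A, and PRY2 had 0.913 without wild-type RC start library B and 0.943 without arp5∆ OX late library A. After quantile normalization HRD3 had 0.95, SRT1 0.66, PRY2 0.98 and DAP1 in late building -0.97, the last being -0.97 at the same FPKM sum too. ERG29, the 1 further ergosterol gene, was called in no pair. Over the cycle none of these 59 genes was called.

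Few of the sterol genes changed by 2-fold in rapamycin. At 45 min 1 of 30 was higher and 1 lower, where 11.2% and 13.7% of all genes were. ERG28 read 129 and 130 FPKM in the control columns, 291 and 297 at 45 min, and 234 and 225 at 90 min. It rose at 45 min with a log2 change of 1.17 ± 0.05 (SE, adjusted p = 5.59e-07) and stood at 0.82 at 90 min. SUT1 read 18.4 and 18.9 FPKM in the control, 5.27 and 3.15 at 45 min, and 5.87 and 5.52 at 90 min. It fell at both times, with log2 changes of -1.95 ± 0.20 (adjusted p = 9.26e-05) and -1.56 ± 0.20 (adjusted p = 0.000248).

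At 90 min none of the 30 was higher and 2 were lower than in the control, where 18.2% and 16.8% of all genes were called. The second was CYB5, with 331 and 335 FPKM in the control, 212 and 210 at 45 min, and 159 and 137 at 90 min (log2 change -1.17 ± 0.07, adjusted p = 4.13e-06). From 45 to 90 min ARE2 alone was called, lower, where 6.30% of all genes were higher and 4.69% lower. It read 31.0 and 32.8 FPKM in the control, 60.9 and 58.8 at 45 min, and 28.7 and 29.2 at 90 min. Its change from 45 to 90 min was -1.02 ± 0.06 (adjusted p = 1.25e-05), and -0.996 without 45 min replicate 3, below the minimum. ARE1 read 28.3 and 24.2, 22.2 and 22.8, and 34.8 and 34.8 FPKM at the 3 points, so ARE1 read below ARE2 in the control and at 45 min and above it at 90 min.

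By the adjusted p alone, the genes past 2-fold included, 11 genes were higher and 13 lower at 45 min, where 37.7% and 33.9% of all genes were, and 10 and 14 at 90 min, where 40.4% and 38.2% were. ERG9 had log2 changes of 0.88 and 0.73 at the 2 times, ERG12 of 0.62 and 0.75, and ERG26 of 0.82 and 0.57. ERG1 had -0.31 and 0.54, and ERG7 -0.24 and 0.53. ERG11 had -0.75 and -0.42, and ERG3 -0.62 and -0.77. ERG25 read 656 and 590 FPKM in the control, 689 and 650 at 45 min, and 671 and 648 at 90 min.

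The regulators were lower at both times by the adjusted p alone. UPC2 read 14.1 and 14.6 FPKM in the control, 9.69 and 10.4 at 45 min, and 7.45 and 7.57 at 90 min, with log2 changes of -0.48 and -0.85. ECM22 read 20.5 and 21.2, 10.1 and 10.9, and 16.0 and 14.3 FPKM, with -0.93 and -0.43. HMG1 read 48.7 and 48.9, 39.2 and 35.9, and 38.4 and 37.2 FPKM, and HMG2 32.2 and 32.5, 43.1 and 42.4, and 39.8 and 40.3. Neither reductase gene passed 2-fold.

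**Figure D4:**
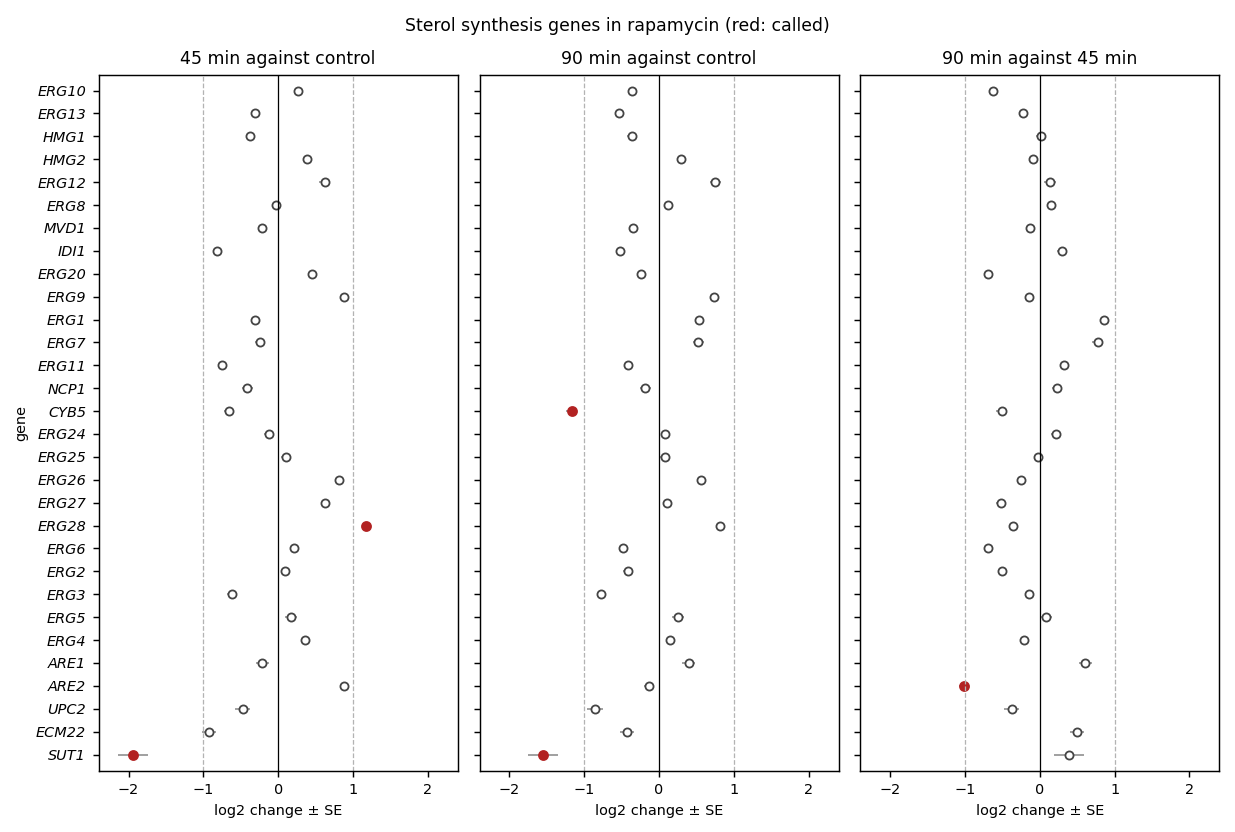
Log2 change of log2(FPKM + 1) with its SE for the 30 sterol genes in BY4741, at 45 min and 90 min in 30 nM rapamycin against the control and at 90 min against 45 min, filled red where the adjusted p was under 0.05 and the change at least 1 either way (dashed lines). ERG28 stands right at 1.17 at 45 min, SUT1 left at -1.95 and -1.56, CYB5 left at -1.17 at 90 min, and ARE2 left at -1.02 from 45 to 90 min.

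These counts depend on the scaling. The 2 comparisons with the control share its columns. At the same FPKM sum per library the median of all genes moved to 0.61 at 45 min and 0.64 at 90 min, from 0.04 and 0.02, and the sterol genes split into 7 higher and 1 lower at 45 min and 7 higher and none lower at 90 min. Of all genes 1806 were then higher and 577 lower at 45 min, and 2229 and 627 at 90 min. Under that scaling their medians, 0.52 and 0.48, were below those of all genes. CYB5 and SUT1 then had -0.52 and -0.96 at 90 min.

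Among the other pathway genes ATF2, which acetylates sterols, fell at 45 and 90 min with log2 changes of -1.30 and -2.95. The haem synthesis gene HEM3 fell by 1.56 and 1.45 on the log2 scale, RER2 by 1.33 and 1.23, and HEM12, also of haem synthesis, by 1.78 at 90 min. With equal FPKM sums ATF2 had -0.72 at 45 min, HEM3 -0.96 and -0.81, and RER2 -0.73 and -0.58, under the minimum.

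Of the 20 sterol transport genes 3 were higher and none lower at 45 min, and 5 and none at 90 min, where 11.2% and 18.2% of all genes were higher at the 2 times and 13.7% and 16.8% lower. NCR1, the yeast relative of the Niemann-Pick sterol transporter, rose at both times (1.27 and 1.23), as did LAM5 (1.04 and 1.64), while PRY2, a sterol-binding secreted protein, rose at 90 min (1.26). DAP1 (1.06 and 1.55) and NSG2, a relative of the animal INSIG proteins (1.11 and 1.19), rose at both times, and MGA2, a membrane-bound factor that controls fatty acid desaturation, fell at 90 min (-1.04). MGA2 had -0.40 at the same FPKM sum, -0.993 without control replicate 2 and -0.930 without 90 min replicate 6, and DAP1 had 0.997 at 45 min without replicate 4. From 45 to 90 min ATF2 (-1.65) and HEM12 (-1.38) fell and PRY2 rose (1.18).

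Accessibility by ATAC-seq, which reads where a transposase can cut the chromatin, was deposited as normalised counts per gene in 12 wild-type and 12 arp5∆ columns. The columns name the genotype but not the phase or replicate, no source used here gives the stretch counted per gene, and the columns of a genotype are not biological replicates, so the p-values are too small. None of the 28 sterol genes was called by limma with a 2-fold minimum, where 2.58% of all genes were. By the adjusted p alone 11 were higher and 9 lower in arp5∆, against 31.2% and 36.1% of all genes, and 20 had an unadjusted p under 0.05, against 69.9%.

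ERG12 and MVD1 had all 12 arp5∆ columns above all 12 wild-type columns, 7.14% of the 28 genes against 10.2% of all genes. ERG12 had a normalised signal of 156 in its lowest, 197 in its median and 227 in its highest wild-type column, and 234, 282 and 378 in arp5∆ (log2 difference 0.57 ± 0.07). MVD1 had 134, 157 and 177 in wild type and 186, 208 and 231 in arp5∆ (0.41 ± 0.05). The RNA libraries of ERG12 did not overlap between the genotypes either, while those of MVD1 did. ERG10, also of the mevalonate pathway, had a log2 difference in signal of -0.11 ± 0.04.

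ERG20, ERG7, CYB5 and ERG27 had all arp5∆ columns below all wild-type columns, 14.3% of the 28 against 9.80% of all genes. ERG7 had 106, 119 and 168 in wild type and 54.9, 77.1 and 99.3 in arp5∆ (log2 difference -0.71 ± 0.09), and CYB5 had 363, 435 and 548 against 232, 287 and 336 (-0.61 ± 0.07). ERG27 and ERG20 had log2 differences of -0.55 and -0.54. ERG28, whose RNA was lower in arp5∆ at every phase, had 291, 321 and 463 in wild type and 274, 373 and 438 in arp5∆, overlapping columns with a difference of 0.08 ± 0.08. ERG11 had overlapping columns too, with medians of 603 and 581. Among the other pathway genes in that table HEM3 alone was called, with a log2 difference of 1.27 ± 0.11. Tested were 10 genes of the prenyl branches, 5 of ester hydrolysis and sterol acetylation and 13 of sterol transport. So were 12 genes of regulation, 8 of haem synthesis and ERG29. Of all genes 2.58% were called.

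**Figure D5:**
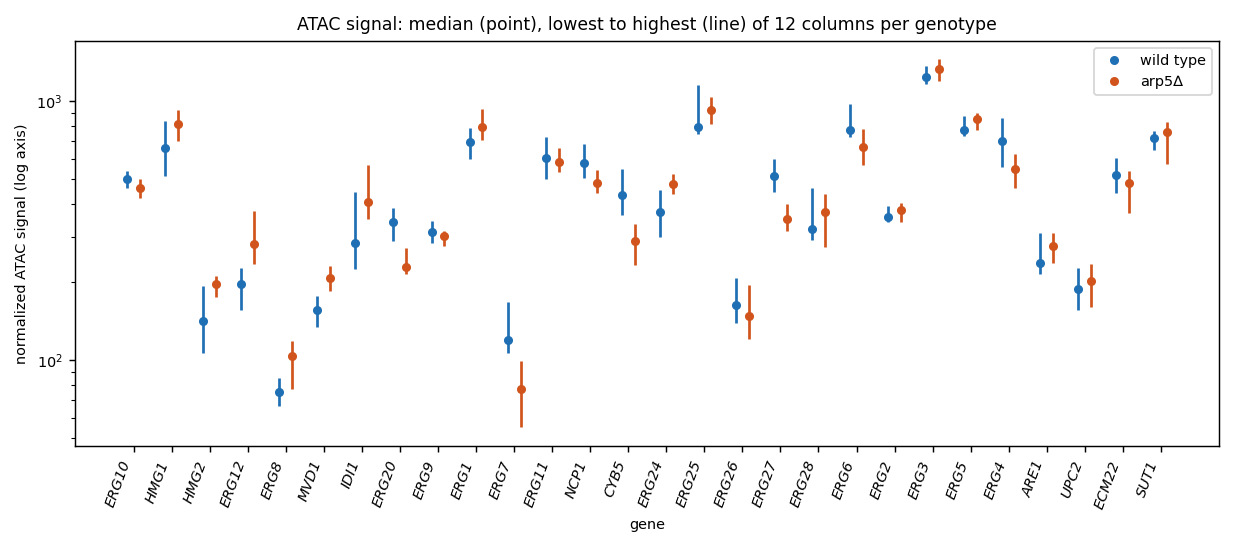
Normalised ATAC signal per gene on a log axis for the 28 sterol genes in the table, as the median (point) and the span from the lowest to the highest (line) of 12 columns per genotype, wild type in blue and arp5∆ in orange. The spans do not overlap for ERG12 and MVD1, higher in arp5∆, and for ERG20, ERG7, CYB5 and ERG27, lower in arp5∆.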

How the data were processed

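The RNA values are FPKM, deposited by the authors in 1 table for the metabolic cycle and 1 for rapamycin. Per the submitters' processing notes, Bowtie2, Picard and DESeq2 were used with the build sacCer3; versions and the step that assigned reads to genes are not given in the sources. The accessibility values are a normalised signal deposited by the authors by a method the sources leave out. In the cycle table the arp5∆ columns stand in another phase order than the wild-type columns, and every column was matched by its name. Rapamycin columns were matched by the replicate numbers in the labels.

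Values were analysed as log2(FPKM + 1) or log2(signal + 1) with limma 3.58.1 in R 4.3.3 and an intensity trend. Genes under a mean of 1 FPKM were left out (6510 and 6333 stayed), and all 5193 genes of the accessibility table were tested. On this scale the fold changes of weakly expressed genes come out too small. Genes were called at an adjusted p (Benjamini-Hochberg, over all genes tested) under 0.05 with a log2 change or range of at least 1. Phase contrasts, cycling and interaction came from 1 fit of 12 groups to 24 libraries. For the comparison over the cycle, A and B were averaged first, and the phase served as a block. The steps were tested on simulated data, with noise drawn from the spread within groups. For the cycle that spread holds no difference between cultures. Read depth was recovered from low values, of which 96.0% to 98.7% per cycle library and 96.0% to 97.3% per rapamycin library were whole multiples of 1 read (tolerance 0.1).

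The sterol genes, the other lists, the phase pairs and the naming rule were chosen with earlier results of these data known. By that rule values are given as single libraries, as lowest, median and highest library, as means or as log2 changes. They cover the widest and narrowest ranges, the largest called changes, the paralogue pairs, 3 oxygen-using steps, and up to 2 genes per further list and direction. LAM4 and PRY2 in the growth burst, HES1 at 45 min, and NPC2 and AUS1 at 90 min were called beyond that number. Other values were chosen after they were seen. Positions are from the RefSeq table of assembly R64. No sequence was analysed here. Alternatives were another pseudocount, no filter, quantile normalization, equal FPKM sums, each library or phase left out, and separate libraries with and without a replicate block.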

Additional observations from a re-analysis of the deposited data

Results flagged for a closer look

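The genotypes differed in course over the labelled phases for 22 of the 30 sterol genes, by limma's F test of the interaction of genotype and phase with a range of at least 1. The genes with the widest range of the genotype difference were ERG4, at 4.78 on the log2 scale, and ERG3, at 4.64. The interaction was called for 74.0% of all genes as well, the libraries of a genotype come from 1 culture, and the same label need not mark the same point of the cycle in both genotypes. The part of timing in these differences was not tested.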

How the results depend on the processing

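No value of a called sterol gene changed sign under the alternatives run. Of these values 2088 kept their side of the threshold and 21 fell below it, and of the counts of called sterol genes 235 stayed within 1.5 times the main count. The counts that did not are these. With a pseudocount of 0.1 the late building count was 2, beside 388 higher and 291 lower of all genes. After quantile normalization the count for 90 against 45 min was 2, beside 406 and 307. At the same FPKM sum per library the counts were 6 for post-growth, 3 for late building and 1 over the cycle. They were then 8 at 45 min, 7 at 90 min, and 0 for 90 against 45 min. Of all genes 702 were then higher and 204 lower for post-growth, and 583 and 155 for late building. Over the cycle 173 and 13 were, at 45 min 1806 and 577, at 90 min 2229 and 627, and for 90 against 45 min 453 and 276. Leaving out 1 library at a time gave 10 to 11 cycling genes in arp5∆, 22 to 23 with an interaction and 8 to 9 for growth burst. It gave 1 to 3 for post-growth, 1 to 2 for late building, and 0 to 1 for 90 against 45 min. The counts for cycling in wild type (20), quiescent-like (7) and both times against the control (2) did not move. Over all genes the counts then ran from 2076 to 2138 for cycling in arp5∆, 4789 to 4861 for the interaction, and 1551 to 1577 for growth burst. For post-growth they ran from 813 to 840, for late building from 608 to 651, and for 90 against 45 min from 661 to 727. With the 24 libraries as separate samples 4 sterol genes were called over the cycle, beside 332 of all genes. With the letters A and B as a replicate block it was also 4, beside 323. Both settings count technical replicates of 1 culture per genotype as samples, so their p-values are too small. The letters do not pair the libraries: over 66 pairs of groups the correlation of A minus B ran from -0.118 to 0.190, above 0.1 in 8. The block changed no other count by over 1.5 times. The rapamycin groups share no replicate numbers. Over all genes, the 99 called over the cycle became 26 without RC mid, 59 without OX mid, 6 without OX late, 1 without RB start, 12 without RB late, 65 after quantile normalization, 186 at the same FPKM sum, 332 with separate libraries and 323 with the block. At the same FPKM sum 1207 genes were called in the quiescent-like pair and 2383 at 45 min, against 769 and 1574 with the authors' scaling. The causes were not tested. Counting error is largest for the genes with few reads, which depend on gene length as well as FPKM, here UPC2, ARE1 and the short gene SUT1.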
